A study of Canis lupus familiaris with 40 samples.

Results

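ENSCAFG00000013763 is 1 of 24580 gene rows in the count, CPM and TPM tables of a study of canine blood myeloid cells. The row was chosen by its raw count, which was the highest of all genes in most PMN-MDSC libraries, and by its share of counts, its spread between libraries and its change in both MDSC subsets. These values are therefore given as a description and carry no test. The tables name genes by Ensembl ID only. No symbol could be found for any of them in the reference at hand (0 matched), so that the gene is called by its ID or as the row.

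Myeloid-derived suppressor cells (MDSCs) are myeloid cells that accumulate in cancer and chronic inflammation and restrain T cells. Polymorphonuclear MDSCs share surface markers with neutrophils but stay in the low-density layer of a blood gradient, where mature neutrophils are scarce, while monocytic MDSCs resemble monocytes that have little MHC class II on their surface. A neutrophil is a short-lived cell packed with granule proteins and a monocyte a longer-lived precursor of macrophages, and a small number of genes can take up a large part of the RNA of either cell.

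The study sequenced RNA of flow-sorted blood cells from tumor-bearing and healthy dogs to compare both MDSC subsets with conventional cells. Tumor-bearing dogs gave 9 libraries of PMN-MDSCs and 5 of M-MDSCs, sorted from the mononuclear layer as CD5 and CD21 negative, MHC II negative and CD11b positive cells. PMN-MDSCs bore the neutrophil antigen CADO48A and no CD14, and M-MDSCs bore CD14 and no CADO48A. They also gave 10 libraries of neutrophils from the dense pellet (C PMN, MHC II negative and CADO48A positive) and 8 of monocytes from the mononuclear layer (C Mono, MHC II and CD14 positive), and healthy dogs gave 5 and 3 such libraries (H PMN and H Mono). The labels hold 1 more library of PMN-MDSCs and 1 more of C PMNs than the description of the series, and all were kept. The paper sets PMN-MDSCs beside neutrophils of the patient they came from, so that some populations share dogs, but the labels do not say which dog gave a library, and the fits treat libraries as independent. The p-values below measure the spread between these libraries. The first letters and digits of the library names form 2 series, and series PAT4694 holds 2 libraries of M-MDSCs and 4 each of PMN-MDSCs, C Monos and C PMNs. The other libraries, with all of those from healthy dogs, are in series GAR4079.

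Counts on genes ranged from 4229857 to 60473238 per library. PMN-MDSC replicate 9 and C PMN replicate 7 stood apart at 6299310 and 4229857 counts, and all others held at least 19130545. The 10 most abundant genes took 58.7% of the counts in PMN-MDSC replicate 9 and 63.9% in C PMN replicate 7, against 28.9% in PMN-MDSC replicate 4, the next highest. At these depths the row was counted between 1139 and 2996750 times in a library, and a 95% Wilson interval on its share of counts was narrow. In the library with the fewest, C PMN replicate 7, the share was 0.0269% with an interval from 0.0254% to 0.0285%. Reads are not independent molecules, and the intervals cover counting error only. A sorted population is measured as a whole, so that fewer cells of a type and less RNA per cell cannot be told apart.

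In PMN-MDSCs the row took 4.61% of the counts of a library on average, and between 0.136% and 7.51%. In CPM, the counts scaled to the library total, this was 46055 ± 32758 (SD, n = 9), with a lowest value of 1360, a median of 59489 and a highest of 75136. Replicates 9, 3 and 8 were low, at 1360, 2948 and 5257 CPM, and replicates 1, 2, 7, 6, 5 and 4 followed at 56253, 59489, 68340, 72104, 73604 and 75136 CPM. No library lay between 5257 and 56253 CPM, a gap of 10.7-fold, and each library series had libraries on both sides of it. Series GAR4079 had a mean of 53486 ± 29458 CPM (SD, n = 5) and series PAT4694 of 36765 ± 38696 CPM (SD, n = 4). On the TMM scale, which corrects for a few genes taking much of a library, replicate 9 rose from 1360 to 9390 CPM and replicates 3 and 8 were at 3248 and 5089 CPM, so that these remained the lowest 3. The gap then ran from 9390 to 58089 CPM, or 6.19-fold.

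By raw count the row ranked first in 6 of the 9 PMN-MDSC libraries, and in replicates 8, 3 and 9 it ranked 26, 45 and 87. It ranked first in none of the 31 libraries of the other 5 populations. In the 6 libraries in which it led, it held from 1.14 to 2.35 times the count of the next gene, with the smallest lead in replicate 1 and the largest in replicate 7. Without the row in the total, the CPM of every other gene would be 8.12% higher in replicate 4 and 0.136% higher in replicate 9.

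**Figure D1:**
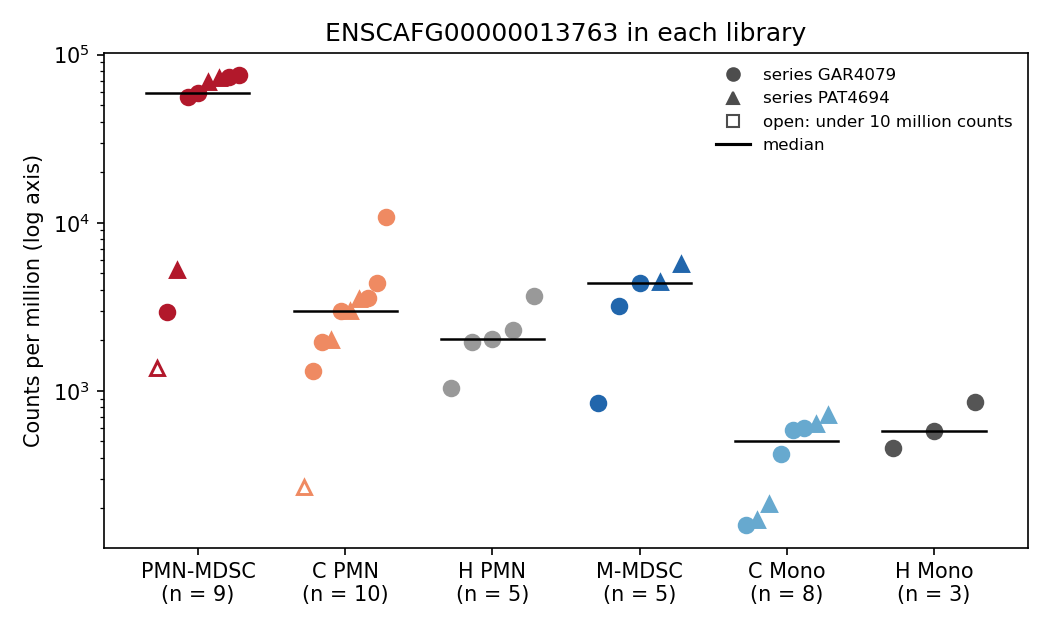
CPM of ENSCAFG00000013763 on a log axis in each of the 40 libraries, by population, with circles for library series GAR4079, triangles for series PAT4694, open symbols for the 2 libraries under 10000000 counts and a line at the median. Of the 9 PMN-MDSC libraries, 6 lie between 56253 and 75136 CPM and 3 between 1360 and 5257 CPM, within the range of the C PMN libraries.

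A raw count grows with the length of a transcript, and levels of different genes are compared here per length, in TPM. The length behind the deposited TPM values came out as 2623 bases for the row, close to the median of 2255 bases over the 12643 genes for which a length was obtained. The row had 26535 ± 19025 TPM (SD, n = 9) in PMN-MDSCs, with a lowest value of 433, a median of 34142 and a highest of 43657. By TPM it ranked first in 1 of 9 libraries, replicate 7, in which it had 42675 TPM. It ranked from 2 to 5 in the other 5 libraries that it led by count, each time behind the same leading gene, which was also first in replicate 9. The place at the top of most PMN-MDSC libraries thus holds for counts and not for levels per length.

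Apart from the row, ENSCAFG00000029470 had the highest count in 7 of the 9 PMN-MDSC libraries, and in replicates 3 and 8 it ranked first. Its length was 1677 bases. It had 39006 ± 16899 TPM (SD, n = 9) in PMN-MDSCs and 20238 ± 3478 TPM (SD, n = 5) in H PMNs, where the row had between 657 and 2211 TPM. Per length, the row reached 1.68 times this gene in PMN-MDSC replicate 7 and 0.731 times in replicate 1, and in replicates 9, 3 and 8 it reached 0.00562, 0.0748 and 0.127 times. The gene also ranked first by count in 7 of the 15 conventional neutrophil libraries, and the row in none.

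In neutrophils of tumor-bearing dogs the row had 3388 ± 2886 CPM (SD, n = 10), with a lowest value of 269, a median of 2997 and a highest of 10845. In those of healthy dogs it had 1040, 1943, 2021, 2297 and 3651 CPM, with a mean of 2190 ± 943 (SD, n = 5). C PMN replicate 1 was above all other neutrophil libraries and C PMN replicate 7, of the lowest depth, below them. With TMM factors replicate 7 rose from 269 to 1852 CPM, above C PMN replicate 5 at 1757 and H PMN replicate 5 at 968. The other 8 C PMN libraries overlapped the range of the H PMNs or lay just above it. By count the row ranked from 9 to 192 in C PMNs and from 40 to 150 in H PMNs. Its share of the counts was between 0.0269% and 1.08% in C PMNs and between 0.104% and 0.365% in H PMNs.

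In M-MDSCs the row had 843, 3187, 4394, 4456 and 5645 CPM, with a mean of 3705 ± 1821 (SD, n = 5), and ranked from 11 to 188 by count. In C Monos it had 437 ± 228 CPM (SD, n = 8), with a lowest value of 159, a median of 501 and a highest of 717, and ranked from 221 to 1020. In H Monos it had 459, 574 and 860 CPM, with a mean of 631 ± 206 (SD, n = 3), and ranked from 184 to 362. All 5 M-MDSC libraries were above all 8 C Mono libraries, and 4 of 5 were above all 3 H Mono libraries. M-MDSC replicate 2, at 843 CPM, was the low one and lay just under the highest H Mono library. The gene first by count was ENSCAFG00000000426 in all 16 monocyte and M-MDSC libraries, at 24223 ± 8008 TPM (SD, n = 5) in M-MDSCs, where the row had 1984 ± 942 TPM (SD, n = 5).

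The order of the means from high to low was PMN-MDSC, M-MDSC, C PMN, H PMN, H Mono and C Mono, and the medians gave the same order. With TMM factors M-MDSCs and C PMNs changed places, at 2580 ± 1328 CPM (SD, n = 5) and 4620 ± 4529 CPM (SD, n = 10), in means and in medians. The unscaled means of M-MDSCs and C PMNs differed by less than the spread within either, and the values of C PMNs and H PMNs, and of H Monos and C Monos, overlapped. H PMNs and H Monos were neighbours in this order that did not overlap. PMN-MDSCs overlapped M-MDSCs, with 6 of 9 libraries above all 5 M-MDSC libraries and PMN-MDSC replicates 9, 3 and 8 within their range. With TMM factors 8 of 9 were above all M-MDSC libraries, and replicate 3 was within their range.

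Between PMN-MDSCs and C PMNs the log2 fold change in edgeR's fit was 3.42 with a standard error of 0.65, a fold of 10.7. It was 3.34 within series GAR4079 and 3.82 within series PAT4694. Of the 9 PMN-MDSC libraries, 6 were above all 10 C PMN libraries, and a PMN-MDSC library was the higher in 75 of 90 pairs. Against H PMNs the log2 fold change was 4.35 with a standard error of 0.90, and 4.57 within series GAR4079, the only series with healthy dogs. In this comparison 7 of 9 PMN-MDSC libraries were above all 5 H PMN libraries, with replicates 9 and 3 inside their range. These counts of libraries are in unscaled CPM, and with TMM factors, as in the fit, 8 of 9 were above and replicate 3 inside.

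Between M-MDSCs and C Monos the log2 fold change was 3.16 with a standard error of 0.47, a fold of 8.91, and the values did not overlap. It was 2.76 within series GAR4079 and 3.60 within series PAT4694. Against H Monos it was 2.65 with a standard error of 0.58, and 2.30 within series GAR4079. By these fold changes the row was higher in both MDSC subsets than in the conventional cells of their lineage, a change that its choice had used. Single libraries overlapped: PMN-MDSC replicates 9, 3 and 8 lay within the range of C PMNs, and M-MDSC replicate 2 within that of H Monos. Between the subsets, PMN-MDSCs were higher than M-MDSCs by a log2 fold change of 4.21 with a standard error of 0.98. It was 4.81 within series GAR4079 and 3.53 within series PAT4694, the latter with a standard error of 2.22. The fits against C cells and against H cells share their MDSC libraries.

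**Figure D2:**
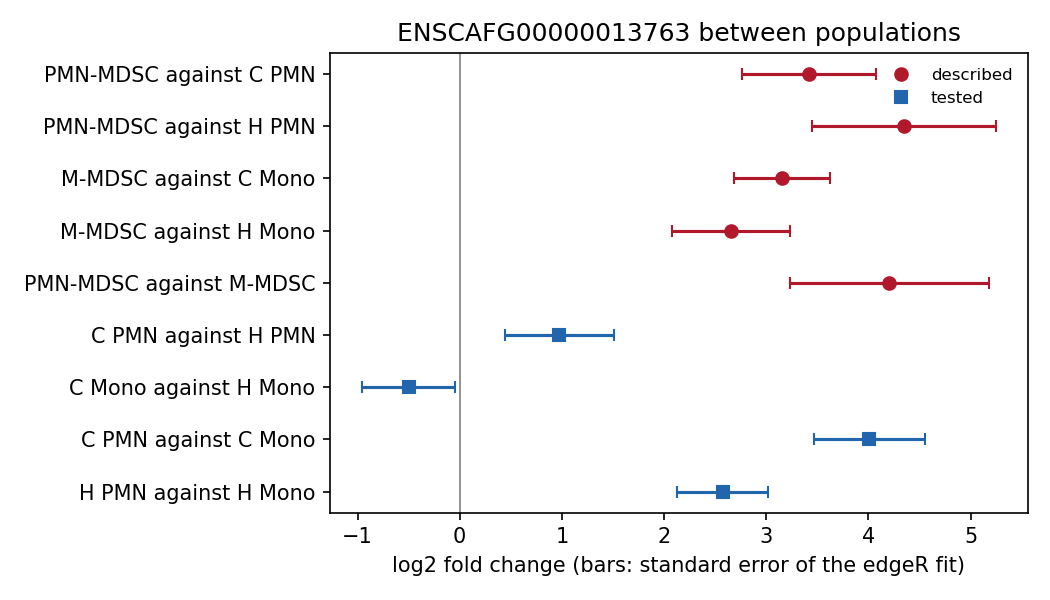
The log2 fold change of ENSCAFG00000013763 in 9 comparisons of populations, with bars for the standard error of edgeR's fit, circles for the comparisons given as a description and squares for those tested. It lies between 2.65 and 4.35 in the comparisons with an MDSC subset, at 4.01 and 2.58 between neutrophils and monocytes, and at 0.98 and -0.50 between tumor-bearing and healthy dogs.

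The choice of the row did not use the comparisons among the conventional populations, and these were tested. It did use levels over all 40 libraries, so that the tests are not independent of it. Neutrophils had more of it than monocytes, in tumor-bearing and in healthy dogs. Of the C PMN libraries, 9 of 10 were above all 8 C Mono libraries, and the log2 fold change was 4.01 with a standard error of 0.54 (edgeR quasi-likelihood test, Benjamini-Hochberg FDR = 2.45e-06). Within the series it was 4.28 in GAR4079 and 3.38 in PAT4694. The count of C PMN libraries is in unscaled CPM, and with TMM factors over all 40 libraries all 10 were above. All 5 H PMN libraries were above all 3 H Mono libraries, and the log2 fold change was 2.58 with a standard error of 0.45 (edgeR FDR = 0.000502). Such calls were common, since 65.6% of the genes tested between C PMNs and C Monos were called at an FDR of 0.05 and 31.5% were called as higher in C PMNs. Between H PMNs and H Monos 60.5% were called and 28.6% were called as higher in H PMNs. With library size alone, 1472 genes were called as higher in C PMNs in place of 3551, and 2093 as higher in H PMNs in place of 3590.

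The row was also tested alone, with a two-sided exact permutation test of the mean log2(CPM + 1) in each of 4 conventional comparisons. The difference was 2.70 between C PMNs and C Monos (exact permutation p = 0.000503, adjusted p = 0.00201 over the 4). Between H PMNs and H Monos it was 1.73 (exact permutation p = 0.0357, adjusted p = 0.0714), and 0.0357 is the smallest p that 5 libraries against 3 can give. This scale averages logarithms and has no TMM correction, and both differences were smaller on it than in edgeR's fit.

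Between tumor-bearing and healthy dogs no difference of the row passed the test in either lineage. In neutrophils the log2 fold change of C PMNs against H PMNs was 0.98 with a standard error of 0.53 (edgeR FDR = 0.604), and the permutation test gave a difference of 0.27 (exact p = 0.654, adjusted p = 0.654). Without C PMN replicate 1 the log2 fold change was 0.48 and the difference of the permutation test 0.03. This difference was 0.62 without C PMN replicate 7, of the lowest depth, and 0.70 within series GAR4079. In monocytes C Monos against H Monos gave -0.50 with a standard error of 0.46 (edgeR FDR = 0.845), and the permutation test a difference of -0.70 (exact p = 0.279, adjusted p = 0.372). Without H Mono replicate 1 the log2 fold change was -0.21. Within series GAR4079, which holds all healthy dogs, the log2 fold changes were 1.29 (edgeR FDR = 0.277) and -0.46 (edgeR FDR = 0.969).

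Few genes passed in these comparisons at all. By edgeR's quasi-likelihood test 0 of 10871 genes (0%) were called between C PMNs and H PMNs, with 1002 at an unadjusted p under 0.05, while DESeq2's Wald test called 259 and limma voom 2. Between C Monos and H Monos edgeR called 0 of 12566 genes (0%), with 929 at an unadjusted p under 0.05, while DESeq2 called 58 and limma voom 0. The row was among the called genes in none of these 6 lists. A test of the difference between the lineages was added after both fold changes had been seen. The change of the row in neutrophils minus that in monocytes was 1.44 on the log2 scale with a standard error of 0.78 (edgeR FDR = 0.987), and 0 of 13864 genes (0%) were called, with 712 at an unadjusted p under 0.05. Without C PMN replicate 1 this difference of the row was 0.93.

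The row was chosen partly by its spread between libraries, which is set here beside that of other abundant genes as a description. Its SD of log2(CPM + 1) in PMN-MDSCs was 2.36 and ranked 14 among the 200 most abundant genes, which had a median of 1.49. Much of that median comes with the library of low depth: without it, the SD of the row was 1.91, again at rank 14, and the median fell to 0.591. The largest gap between neighbouring libraries, 3.42 on the log2 scale, ranked 74 of 200 with that library and 8 without it. In M-MDSCs the SD of the row was 1.10 and ranked 7 of 200, in H PMNs it was 0.65 and ranked 12, and in C PMNs it was 1.38 and ranked 107, below the median of 1.41. Without the library of low depth it was 0.86 in C PMNs and ranked 30, against a median of 0.442. The coefficient of variation of the CPM was 71.1% in PMN-MDSCs, 85.2% in C PMNs, 49.1% in M-MDSCs, 43.1% in H PMNs, 52.3% in C Monos and 32.7% in H Monos.

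The genes most like the row were sought by the Pearson correlation of log2 CPM (TMM, prior count 2) over all 40 libraries, among 14466 other genes that passed the filter on low counts. The libraries fall into populations and share depth and series, and the coefficients are a description. The highest were those of ENSCAFG00000016584 (r = 0.923, Spearman's rho = 0.876, n = 40) and ENSCAFG00000011038 (r = 0.901, rho = 0.898, n = 40), the only 2 genes at or above 0.9 over the 40 libraries, where 73 were at or above 0.8. Without the 2 libraries of low depth they were 0.939 and 0.904 (n = 38), and ranked 1 and 7, with 8 genes at or above 0.9 and 146 at or above 0.8. Over the 31 libraries that are not PMN-MDSCs they were 0.885 and 0.853, where 83 genes were at or above 0.8. The choice of the 2 genes had used these libraries too, so that high coefficients there were largely fixed by it. Within the 9 PMN-MDSC libraries the gap leaves groups of 6 and 3, and the coefficients of the 2 genes are not given.

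ENSCAFG00000016584 had 2894 ± 1877 CPM (SD, n = 9) in PMN-MDSCs, 1030 ± 618 (SD, n = 10) in C PMNs and 970 ± 347 (SD, n = 5) in H PMNs. It had 849 ± 221 CPM (SD, n = 5) in M-MDSCs, 398 ± 98.7 (SD, n = 8) in C Monos and 452 ± 70.9 (SD, n = 3) in H Monos. Its populations stood in nearly the same order as those of the row, over a smaller range, with M-MDSCs below both neutrophil populations. ENSCAFG00000011038 was a gene of low level, with 76.2 ± 48.0 TPM (SD, n = 9) in PMN-MDSCs and 2.68 ± 0.732 (SD, n = 8) in C Monos. In PMN-MDSC replicates 9, 3 and 8 it had 2.95, 22.8 and 27.9 TPM, and at least 73.0 in each of the other 6. Both genes were low in the same 3 PMN-MDSC libraries as the row, which their choice by correlation over all libraries largely fixed. Over these 9 libraries 213 of the 14466 genes had an r of at least 0.9 with the row, and the 2 genes ranked 113 and 22. Without the library of low depth there were 624 such genes. As the gap leaves groups of 6 and 3, these counts mostly reflect the difference between the groups.

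**Figure D3:**
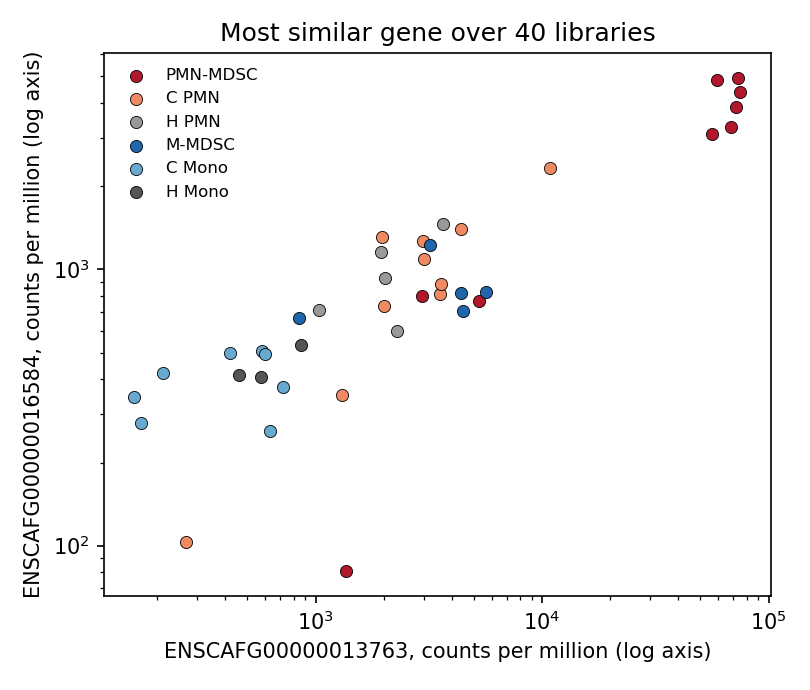
CPM of ENSCAFG00000016584 against that of ENSCAFG00000013763 in the 40 libraries, both on log axes, colored by population (Pearson r = 0.923 on log2 CPM with TMM factors). The 6 PMN-MDSC libraries with the most of the row lie at the upper right and the 2 libraries of low depth at the bottom.

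To check the sorted populations against their labels, 2 lists of 50 genes each were taken from the healthy libraries alone, 1 of genes at least 50-fold higher in H PMNs than in H Monos and 1 of the reverse, with a mean of at least 50 CPM and without the row. The neutrophil list summed to 69390 ± 9229 CPM (SD, n = 5) in H PMNs and the monocyte list to 108992 ± 8974 CPM (SD, n = 3) in H Monos, and the other libraries are given in percent of these means. The most abundant gene of the neutrophil list was ENSCAFG00000029470 in every library but PMN-MDSC replicate 9. Every one of the 9 PMN-MDSC libraries was at 98.8% or more of the neutrophil list, and every M-MDSC library at 58.8% or more of the monocyte list. Without 2 abundant genes of the neutrophil list, PMN-MDSC replicates 3 and 8 were at 87.6% and 79.9% of the H PMN mean. The other PMN-MDSC libraries were then at 128% or more. Of the 50 genes of the neutrophil list, 1 or 2 were at a count of 0 in each M-MDSC library, 2 in PMN-MDSC replicate 9, 1 each in PMN-MDSC replicates 4 and 7, and none in the other 6 PMN-MDSC libraries.

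In ascending order of the row, the 9 PMN-MDSC libraries held 3.49%, 0.547%, 2.18%, 8.04%, 7.01%, 6.18%, 11.3%, 8.89% and 9.79% of the monocyte list. Their sums on the neutrophil list, in the same order, were 581%, 99.0%, 98.8%, 196%, 185%, 130%, 167%, 174% and 229%. The 3 libraries lowest in the row were the lowest in the monocyte list, and 2 of them the lowest in the neutrophil list, while replicate 9 was the highest. In replicate 9 the 2 abundant genes took 82.3% of the neutrophil list, and in the other PMN-MDSC libraries they took from 45.8% to 63.6%. Without them the sum of replicate 9 was 216%, against 185% in replicate 4, the next highest. The place of replicate 9 in the monocyte list rested on 1 gene, the most abundant of the list in the 6 libraries in which the row led, at 3508 to 5389 CPM there and 42.4 CPM in replicate 9. Without this gene, replicate 7 held 2.68% of the list and replicate 9 held 3.60%. The C Mono and H Mono libraries had at most 860 CPM of the row, and the M-MDSC libraries at most 5645 CPM. The part of the differences in the 2 lists in the level of the row was not tested.

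In ascending order of the row, the M-MDSC libraries had sums of 2776, 4154, 4504, 4751 and 4865 CPM on the neutrophil list, an order that was the same as that of the row. C Monos had sums between 301 and 2019 CPM and H Monos between 336 and 651 CPM. All 5 M-MDSC libraries were thus above all monocyte libraries in the neutrophil list, while in the row replicate 2 was not. For each CPM of the list, there were between 0.0187 and 0.0481 CPM of the row in H PMNs, at most 0.0697 in C PMNs, between 0.00338 and 0.758 in PMN-MDSCs and between 0.304 and 1.16 in M-MDSCs. In C Monos there were between 0.319 and 1.15 and in H Monos between 0.882 and 1.56, so that M-MDSCs overlapped the monocytes in this ratio. M-MDSCs had been sorted as CD14 positive and CADO48A negative, and the part of neutrophils in their level of the row was not tested.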

How the data were processed

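Reads of Smart-seq2 libraries were trimmed with skewer, aligned with HISAT2 to CanFam3.1 with spike-in sequences, marked for duplicates with Picard, and counted on Ensembl genes of that build with featureCounts by the authors, who deposited raw counts, CPM and TPM values. The deposited CPM values are the counts scaled to the library total with 92 spike-ins, which was checked, and spike-ins held at most 0.000275% of the counts. The gene length behind the deposited TPM values was recovered from the ratio of counts to TPM as the smallest scale on which 99.87% of lengths were whole within 0.001 bases. A further table with the same CPM values was left aside. Counts of each 2 populations were fitted with edgeR 4.0.16 (quasi-likelihood, TMM, filterByExpr) in R 4.3.3, with Benjamini-Hochberg FDR over all genes tested, and calls were made at 0.05. The standard errors given with edgeR's fold changes were derived as the size of the log2 fold change over the square root of its quasi-likelihood F statistic. The script of the edgeR test was first run on simulated counts. Permutation tests used scipy 1.17.1 and a pseudocount of 1 CPM, with figures by matplotlib 3.10.9. Alternatives used DESeq2 1.42.0 and limma 3.58.1, other normalizations, filters and pseudocounts, single series and left-out libraries. Replicate libraries differed beyond sampling noise in all pairs, with a chi-square over its degrees of freedom of at least 96.7. Named were the row, the 2 genes most like it, the highest other gene by count in most PMN-MDSC libraries and the first by count in the monocytic libraries. The row and the lists were chosen with earlier results of these data known. Lists by gene symbol were not analysed here.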

Additional observations from a re-analysis of the deposited data

Results flagged for a closer look

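C PMN replicate 1 had 10845 CPM of ENSCAFG00000013763, and its distance to the next C PMN library, at 4390 CPM, was 0.610 of the whole range of the 10 libraries. The library was marked by Dixon's rule for a sample far from the others, in 1 of 5 populations, and chance alone marks about 1 of 20 groups. The row was chosen partly by its spread between libraries, so that the mark is a description and no test. On the log2 scale the distance was 0.245 of the range, and the rule marked no library. In this library the row ranked 9 by count and held 1.08% of the counts, and the sum on the neutrophil list was 224% of the H PMN mean, against 141% in the next C PMN library of ordinary depth. The part of that difference in the level of the row was not tested. Without the library the log2 fold change of C PMNs against H PMNs was 0.48, and that of PMN-MDSCs against C PMNs was 3.91.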

How the results depend on the processing

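The 9 log2 fold changes of the row kept their direction in every fit run for them. The 4 tested also kept their side of the FDR threshold. Summed over the 9 comparisons, there were 88 fits under alternatives in processing and 120 fits without a library. Each comparison had 7 to 11 of the former and 8 to 19 of the latter. The described fold changes moved by less than the pooled SD between libraries, and the smallest and largest were 3.05 and 3.91 for PMN-MDSCs against C PMNs and 2.76 and 3.60 for M-MDSCs against C Monos. That of C PMNs against C Monos fell from 4.01 to 2.96 with library size alone and to 3.14 with at least 10 counts in every library, and that of H PMNs against H Monos from 2.58 to 1.80 with library size alone. The FDR ranged from 0.277 to 0.861 for C PMNs against H PMNs, from 0.701 to 1 for C Monos against H Monos, from 1.90e-17 to 0.00610 for C PMNs against C Monos, and from 9.51e-09 to 0.0247 for H PMNs against H Monos. For the difference between lineages it was at least 0.636. The adjusted p of the first 3 exact permutation tests, in the same order, stayed on its side of 0.05, with ranges of 0.229 to 0.871, 0.244 to 0.756 and 0.000329 to 0.0381. That of H PMNs against H Monos ranged from 0.0714 to 0.190, and as 5 libraries against 3 give no p under 0.0357, its side of 0.05 is no sign of stability.

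Ranked by TPM in place of counts, the row was first in 1 PMN-MDSC library in place of 6, and the change is one of scale, from reads to reads per length. With TMM factors its mean in H Monos was 424 CPM in place of 631, a move of over 1 SD. The CPM is divided by the factor, which was between 1.42 and 1.60 in H Monos. All other means moved by less than 1 SD, but the TMM factors moved M-MDSCs from 3705 to 2580 CPM and C PMNs from 3388 to 4620 CPM, which reversed their order. The factors were between 1.30 and 1.59 in M-MDSCs and between 0.145 and 1.02 in C PMNs. What set the factors was not tested.

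Library size alone moved the median of all genes between C PMNs and C Monos from -0.03 to -1.08, and the row relative to that median from 4.04 to 4.03. The calls were then 1472 higher and 5734 lower, against 3551 and 3836, and between H PMNs and H Monos 2093 and 5630, against 3590 and 4010. The 7387 calls between C PMNs and C Monos were 2005 with at least 10 counts in every library, where 3107 genes were tested, and 3511 in series PAT4694 alone. The 0 calls between C PMNs and H PMNs were 259 with DESeq2, 2 with limma voom, 9 with all libraries in a single fit, 2 with the series as a term, 94 in series GAR4079 alone, and 1 each without C PMN replicates 4 and 9. Those between C Monos and H Monos were 58 with DESeq2 and 6 without C Mono replicate 3. No paired analysis was possible because the replicate numbers only follow the order of the samples.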
